A study of Mus musculus with 96 samples.

Results

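Mitochondrial complex I, NADH:ubiquinone oxidoreductase, is the first enzyme of the respiratory chain. Its matrix arm takes electrons from NADH through a flavin and a chain of iron-sulfur clusters to ubiquinone, and its membrane arm pumps protons. Besides the core subunits, the mammalian enzyme holds many accessory subunits, and dedicated assembly factors are needed to build it. The brain depends heavily on respiration, and inherited defects of the complex cause encephalopathies. Most nuclear genes of the complex carry symbols that start with Nduf, and transcript levels of these genes are described here in the brains of 2 inbred mouse strains. Members were all transcript clusters, the gene-level units of the array, that were annotated with 1 gene symbol beginning with Nduf. Of 50 such clusters, the one with the highest mean was kept for each gene, which gave 43 genes of 18818 genes with a cluster of their own. They comprised 6 core subunits of the matrix arm, 9 accessory subunits of the matrix arm, 18 accessory subunits of the membrane arm, the acyl carrier protein Ndufab1, 7 assembly factors (Ndufaf1 to Ndufaf7), and 2 genes, Ndufa4 and Ndufa4l2, that are now counted with complex IV. Another 4 clusters listed an Nduf symbol together with a second symbol and were not members. None of the 7 subunits encoded by mitochondrial DNA was found by symbol, so the pumping core of the membrane arm was not analysed.

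The samples came from 16 adult male mice of inbred strains, 8 NOD/ShiLtJ and 8 C57BL/6J. Within each strain 4 mice had received an acute intraperitoneal dose of the antipsychotic clozapine and 4 had received saline vehicle, and all were killed 3 hours later. Each mouse gave a forebrain, a hindbrain, and a whole brain sample, the last from the intact hemisphere with the cerebellum removed and the olfactory bulb attached. Each of the 48 RNA samples was hybridized to Affymetrix mouse gene arrays in the 1.1ST peg format and again in the 1.0ST cartridge format, so the 96 arrays held 48 RNA samples and the formats were not independent replicates. Values are log2 signal, and a difference of 1 is a 2-fold difference. All values are from 1.1ST arrays unless the 1.0ST format is named.

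Strain differences are given as NOD/ShiLtJ minus C57BL/6J, from a linear model fitted with limma to all 28310 transcript clusters at once, in which the mouse was a random block and 5 surrogate variables stood for unmeasured variation. A transcript was called differentially expressed at a false discovery rate (FDR) below 0.05 over all 28310 transcripts. Array medians ranged between 6.28 and 6.61 on 1.1ST arrays and between 8.14 and 8.23 on 1.0ST arrays, and the number of arrays limited the precision. The region labels fitted their marker genes: the mean over 7 brainstem neuron genes was 7.11 to 8.28 in hindbrain and 4.98 to 6.36 in forebrain, and the mean over 6 telencephalic neuron genes was 6.46 to 7.67 in hindbrain and 8.65 to 9.00 in forebrain. Some samples stood apart. Cerebellar genes averaged 8.27 to 10.05 in 5 hindbrain samples (3 NOD/ShiLtJ, 2 C57BL/6J) and 6.91 to 7.59 in the other 11, the forebrain of NOD/ShiLtJ mouse DD678 had the highest brainstem neuron mean of any forebrain (6.36), and the whole brain of NOD/ShiLtJ mouse DD656 the highest of any whole brain (7.82). Some counts that rest on these samples, and the Ndufs5 strain differences in forebrain and hindbrain, are also given without them. That choice was made after their values were seen. The strains also differed in body weight, 28.1 to 32.8 g in NOD/ShiLtJ and 22.9 to 26.3 g in C57BL/6J without overlap. Litter size in the labels was larger in NOD/ShiLtJ, also without overlap. Neither weight nor litter size can be told apart from strain.

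Promoter sequence was examined first, because nuclear genes of the respiratory chain are known in mammals for sites of nuclear respiratory factor 1 (NRF1) and of ETS family factors. RefSeq windows from 250 bases before to 50 bases after the gene start (build GRCm38.p6, a C57BL/6J genome) were available for 38 of the 43 genes. An NRF1-like pattern, GCGC followed by any 2 bases and GCGC again, which reads the same on both strands, occurred in 11 of the 38 windows (28.9%) and in 1891 of the 27025 windows of all genes (7.0%). The ETS-like letters ACTTCCG, searched on both strands, occurred in 4 of the 38 windows (10.5%) and in 7.2% of all windows. The following stretches show the first pattern in capitals, written on the gene's strand, for Ndufs5, which had the largest strain difference among the members, and for Ndufaf5, Ndufa11 and Ndufab1, the 3 members with the pattern whose fitted hindbrain differences were largest.
Ndufs5: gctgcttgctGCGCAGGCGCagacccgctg
Ndufaf5: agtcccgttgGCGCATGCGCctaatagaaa
Ndufa11: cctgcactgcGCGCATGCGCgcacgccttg
Ndufab1: gggtccgcccGCGCCCGCGCagccctcaag
They lie at chr4:123718265-123718294 (minus strand), chr2:140170652-140170681 (plus strand), chr17:56717692-56717721 (plus strand), and chr7:122101909-122101938 (minus strand), and the pattern lies upstream of the annotated gene start except in Ndufaf5, where it lies just downstream. A match describes the letters and not a bound site, and NOD/ShiLtJ sequence was not analysed here. Of the 11 members with the NRF1-like pattern, 7 were called higher in hindbrain than in forebrain (a comparison described with the brain regions), as were 21 of the 27 members with a window that lacked it.

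Ndufs5, a twin CX9C protein on the intermembrane space side of the membrane arm, had much lower transcript signal in NOD/ShiLtJ than in C57BL/6J in every region. In forebrain the lowest, median and highest Ndufs5 signals were 5.59, 6.16 and 7.13 in the 8 NOD/ShiLtJ mice, against 8.05, 8.33 and 8.56 in the 8 C57BL/6J mice. In hindbrain they were 6.43, 6.57 and 6.91 in NOD/ShiLtJ, against 8.29, 8.62 and 9.01 in C57BL/6J. In whole brain they were 5.96, 6.4 and 6.73 in NOD/ShiLtJ, against 8.19, 8.62 and 8.81 in C57BL/6J. The strains did not overlap in any region, and the widest spread was that of the NOD/ShiLtJ forebrains, where mouse DD657 was highest and mouse DD676 lowest. On 1.0ST arrays the same separation was seen, with 7.89, 8.11 and 8.25 in NOD/ShiLtJ forebrain against 8.96, 9.20 and 9.35 in C57BL/6J forebrain, and likewise 8.01, 8.31 and 8.62 against 9.34, 9.50 and 9.62 in hindbrain and 7.95, 8.13 and 8.27 against 9.16, 9.33 and 9.66 in whole brain.

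**Figure D1:**
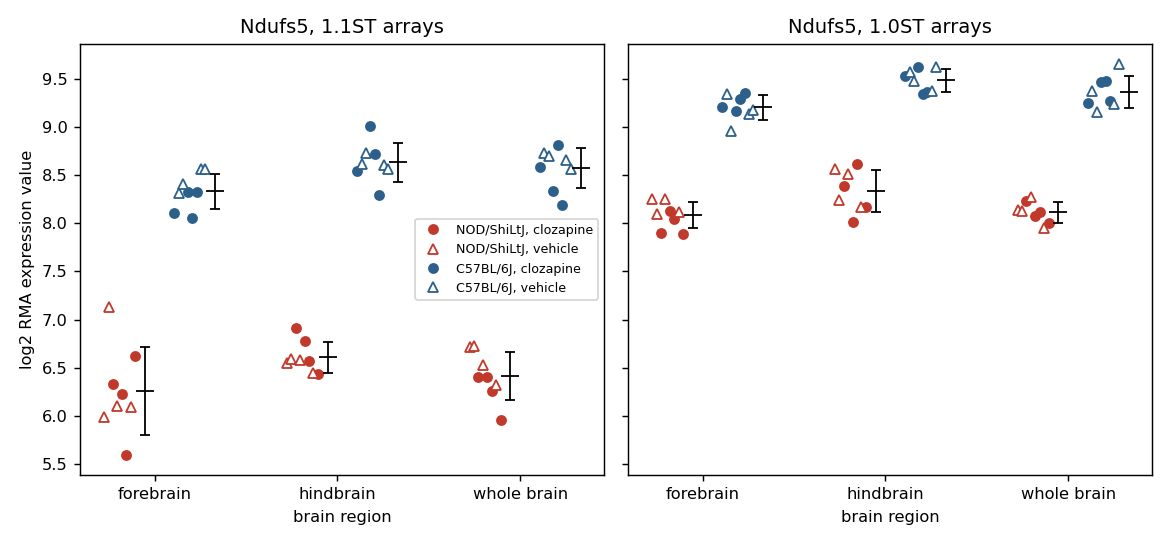
Ndufs5 signal (log2) of each mouse by region, NOD/ShiLtJ left of C57BL/6J, on 1.1ST and 1.0ST arrays, with the mean and SD over 8 mice beside the points. The highest NOD/ShiLtJ value on 1.1ST arrays (7.13) is below the lowest C57BL/6J value (8.05), and the separation is narrower on 1.0ST arrays.

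Ndufs5 was singled out with its strain difference already known, so the size of that difference is given as a description, with no test. The fitted strain difference of Ndufs5 was -2.05 in forebrain (SE 0.112), which is 4.15-fold lower in NOD/ShiLtJ. It was -2.0 in hindbrain (SE 0.12) and -2.16 in whole brain (SE 0.109), 3.99-fold and 4.46-fold lower. On 1.0ST arrays the differences were -1.12, -1.18 and -1.25 in forebrain, hindbrain and whole brain, 2.17-fold to 2.39-fold lower, so the size, but not the direction, varied with the array format. With the mouse as the unit (the mean of its 3 arrays), Ndufs5 signal was 6.43 ± 0.199 in NOD/ShiLtJ and 8.51 ± 0.117 in C57BL/6J (SD, n = 8 each). The highest NOD/ShiLtJ mouse was at 6.82 and the lowest C57BL/6J mouse at 8.27. The NOD/ShiLtJ mean lay within the range of the array medians (6.28 to 6.61). The same held on 1.0ST arrays (mean 8.18, array medians 8.14 to 8.23). Whether signal at that level limited the size of the strain difference was not tested. In forebrain and hindbrain the strain difference was as large without the samples that stood apart. It was -2.1 in forebrain without mouse DD678 and -2.05 in hindbrain without the 5 samples with high cerebellar genes. It did not differ detectably between regions: the interaction of strain and hindbrain was 0.06 (SE 0.158, FDR 0.759) and that of strain and whole brain -0.11 (SE 0.153, FDR 0.966).

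Compared with the rest of the family, Ndufs5 stood apart. The next largest strain difference was that of Ndufb10 in forebrain (-0.33), Ndufaf5 in hindbrain (0.39), and Ndufaf1 in whole brain (-0.32), so that on the log2 scale the difference of Ndufs5 was 6.18, 5.16 and 6.81 times the next. On 1.0ST arrays, where Ndufb8 came next in forebrain (0.28) and Ndufaf5 in hindbrain and whole brain, it was 4.04, 3.93 and 4.41 times the next. The median absolute difference of the other 42 members was 0.0647 in forebrain, 0.0914 in hindbrain, and 0.0554 in whole brain. Among all 28310 transcripts Ndufs5 ranked 28th, 79th and 23rd by absolute strain difference in forebrain, hindbrain and whole brain. Its place in the order is likewise a description. The per-array median over the other 42 members showed the strains side by side: its lowest, median and highest values were 9.22, 9.30 and 9.51 in NOD/ShiLtJ forebrain, against 9.20, 9.31 and 9.51 in C57BL/6J forebrain. It ran over 9.56, 9.67 and 9.90 in NOD/ShiLtJ hindbrain, against 9.50, 9.61 and 9.82 in C57BL/6J hindbrain, and the strains overlapped in both regions.

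**Figure D2:**
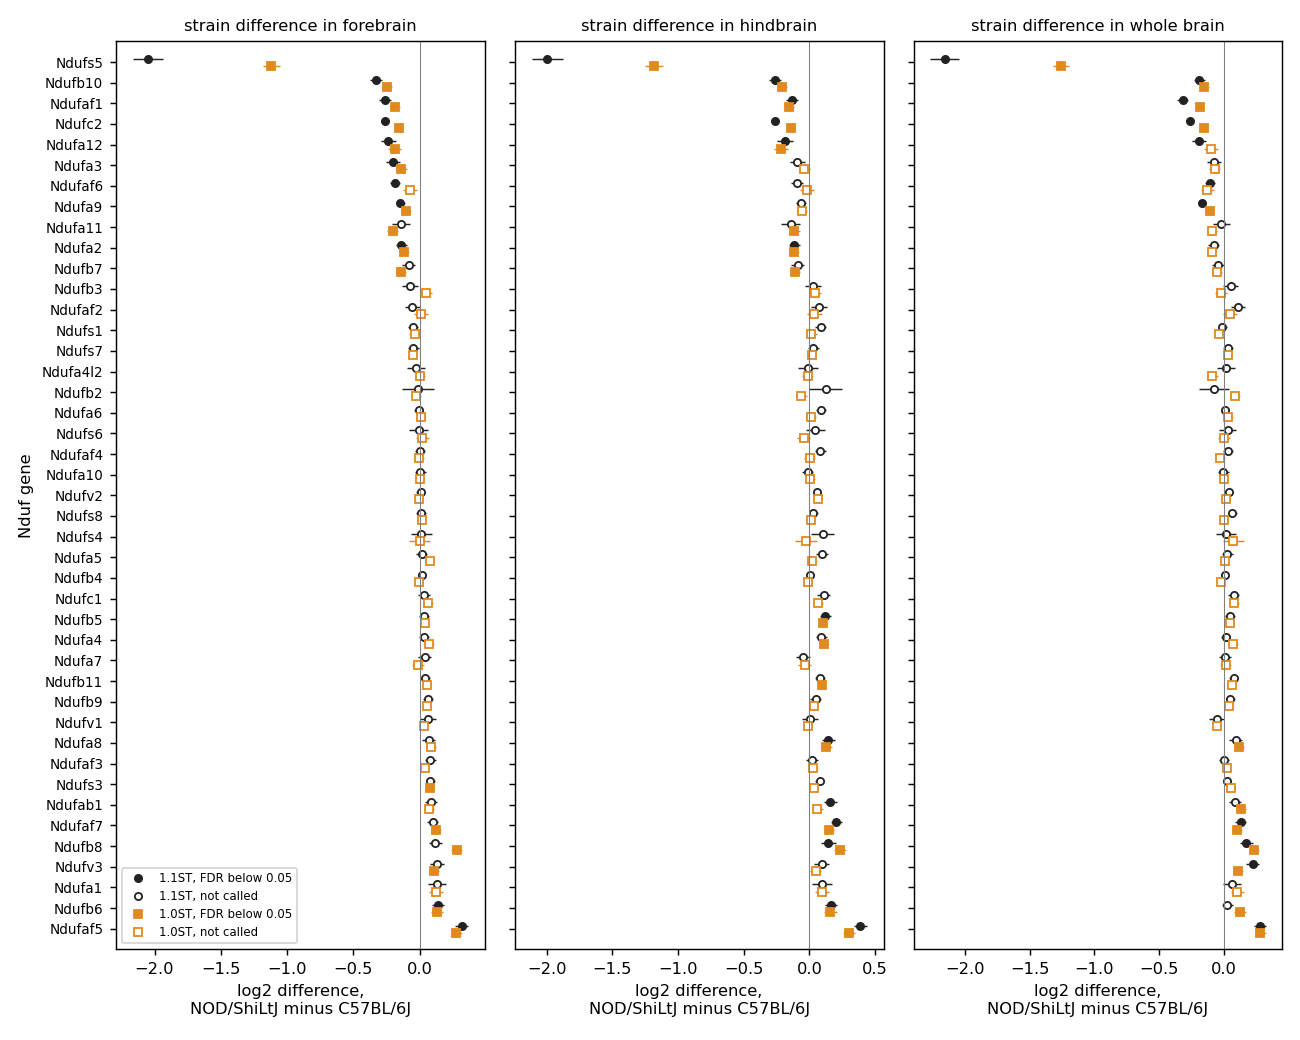
Fitted strain difference (log2, NOD/ShiLtJ minus C57BL/6J) of the 43 Nduf genes in forebrain, hindbrain and whole brain, with bars of 1 SE, circles for 1.1ST and squares for 1.0ST arrays, filled where the FDR was below 0.05. Ndufs5 lies near or below -2.0 on 1.1ST arrays, and the other 42 genes lie between -0.33 and 0.39.

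A second cluster carried the symbols of both Ndufs5 and Ndufs5-ps, a pseudogene of it, and its signal cannot be assigned to either. Its signals overlapped between strains in all 3 regions: in forebrain they were 7.46, 8.02 and 8.28 (lowest, median and highest) in NOD/ShiLtJ, against 8.03, 8.22 and 8.39 in C57BL/6J. The fitted differences had the same direction and were much smaller, -0.26 in forebrain (SE 0.0467, FDR 2.3e-05), -0.13 in hindbrain (SE 0.0498, FDR 0.0468), and -0.16 in whole brain (SE 0.0454, FDR 0.0065). Values were analysed per cluster, and probe sequences were not analysed here. Whether NOD/ShiLtJ sequence differs from the Ndufs5 probes, which could change the signal without a change in transcript amount, was not tested. The 5 measured genes on each side of Ndufs5 in the RefSeq order (Heyl, Pabpc4, Bmp8a, Oxct2a and Macf1, then Akirin1, Rhbdl2, D130007C19Rik, Mycbp and Rragc) did not share its strain difference. None was called in forebrain, where they ranged between -0.10 (Heyl) and 0.09 (Rragc), and none in whole brain. In hindbrain Mycbp (0.21), Rragc (0.17) and D130007C19Rik (0.16) were called higher in NOD/ShiLtJ and Akirin1 (-0.14) lower.

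Strain calls among the members ran both ways, and those of members other than Ndufs5 were small in size. In forebrain 2 members were called higher in NOD/ShiLtJ, beside 8.98% of all transcripts, and 9 lower, Ndufs5 among them, beside 8.76%. In hindbrain 7 were called higher (11.8% of all transcripts) and 6 lower (8.69%), and in whole brain 4 higher (9.27%) and 7 lower (8.7%). The median difference over the 43 members was 0.006 in forebrain, 0.047 in hindbrain, and 0.021 in whole brain, beside 0.006, 0.015 and 0.009 over all transcripts. On 1.0ST arrays 6 were higher (12.6%) and 10 lower (8.61%) in forebrain, 8 (12.8%) and 8 (11.1%) in hindbrain, and 7 (9.7%) and 6 (9.09%) in whole brain. No member was called in opposite directions by the 2 formats.

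Of the core subunits, which carry the flavin and the iron-sulfur clusters, none of 6 was called between strains in any region. The differences of Ndufv1, Ndufv2, Ndufs1, Ndufs3, Ndufs7 and Ndufs8 lay between -0.05 and 0.08 in forebrain, between 0.01 and 0.09 in hindbrain, and between -0.05 and 0.07 in whole brain, although on 1.0ST arrays Ndufs3 was called higher in NOD/ShiLtJ forebrain (0.08). Among accessory subunits of the matrix arm, Ndufa12 was lower in NOD/ShiLtJ in all 3 regions. Its forebrain signals were 7.98, 8.27 and 8.57 (lowest, median and highest) in NOD/ShiLtJ, against 8.36, 8.47 and 8.74 in C57BL/6J, which overlapped, and its differences were -0.24, -0.18 and -0.19 in forebrain, hindbrain and whole brain (FDR 0.00159, 0.0195 and 0.00862). On 1.0ST arrays its whole brain difference was -0.10 and not called (FDR 0.141). Ndufa9, which binds NADPH near the junction of the arms, was lower in forebrain (-0.15, FDR 0.000709) and whole brain (-0.17, FDR 9.18e-05). Ndufa2 was lower in forebrain (-0.14, FDR 0.00821) and hindbrain (-0.11, FDR 0.0369), and its hindbrain call was lost in 8 of the 16 fits that left out 1 mouse. The only accessory subunit of the matrix arm called higher was Ndufv3, in whole brain (0.23, FDR 0.000503), with 8.21, 8.36 and 8.51 in NOD/ShiLtJ against 7.97, 8.13 and 8.26 in C57BL/6J.

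In the membrane arm, Ndufb10 and Ndufc2 were lower in NOD/ShiLtJ in all 3 regions on both formats. Ndufb10, an accessory subunit of the intermembrane space side like Ndufs5, had signals of 7.21, 7.31 and 7.36 in NOD/ShiLtJ hindbrain, against 7.41, 7.63 and 7.81 in C57BL/6J hindbrain, without overlap. Its differences were -0.33 in forebrain (SE 0.0435, FDR 6.65e-08), -0.26 in hindbrain, and -0.19 in whole brain (FDR 0.000698), and in forebrain and whole brain the strains overlapped. Ndufc2 had the most even difference, -0.26 in each region (FDR 3.86e-10 in forebrain), with forebrain signals of 11.79, 11.84 and 12.05 in NOD/ShiLtJ, against 11.91, 12.10 and 12.16 in C57BL/6J. Ndufa3 was lower in forebrain (-0.20, FDR 0.00286). In the other direction, Ndufb6 was higher in NOD/ShiLtJ forebrain (0.13, FDR 0.0221) and hindbrain (0.17, FDR 0.00731), and Ndufb8 in hindbrain (0.14, FDR 0.0414) and whole brain (0.18, FDR 0.00719). Ndufa8, another twin CX9C subunit (0.14, FDR 0.0302), Ndufb5 (0.12, FDR 0.0181) and the acyl carrier protein Ndufab1 (0.16, FDR 0.0121) passed the threshold as higher in hindbrain. On 1.0ST arrays Ndufab1 was at 0.06 in hindbrain and not called (FDR 0.202). The hindbrain call was lost for Ndufb8 in 9 and for Ndufa8 in 7 of the 16 fits that left out 1 mouse. Their differences nearest 0, 0.08 and 0.09, came without NOD/ShiLtJ mouse DD675. Without the 5 hindbrain samples with high cerebellar genes, 4 members were called higher and 5 lower in hindbrain, and Ndufb8 (0.13), Ndufa8 (0.13), Ndufb5 (0.12) and Ndufaf1 (-0.10) lost their calls. What share of all transcripts was called without those samples is not given here. No member had a called interaction of strain and hindbrain.

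Assembly factors held the largest difference in the upward direction. Ndufaf5, which hydroxylates the core subunit Ndufs7, was higher in NOD/ShiLtJ in all 3 regions on both formats. Its signals were 8.49, 8.62 and 8.73 in NOD/ShiLtJ hindbrain, against 8.07, 8.2 and 8.34 in C57BL/6J hindbrain, with no overlap, whereas in forebrain the strains overlapped slightly, with 7.91, 8.09 and 8.26 in NOD/ShiLtJ against 7.55, 7.80 and 7.96 in C57BL/6J. The fitted differences were 0.32 in forebrain (SE 0.0473, FDR 1.13e-06), 0.39 in hindbrain (SE 0.0505, FDR 5.45e-08), and 0.28 in whole brain (FDR 5.75e-06). Ndufaf1, a factor for the membrane arm, was lower in all 3 regions, with differences of -0.26 in forebrain (FDR 1.23e-05), -0.13 in hindbrain (FDR 0.0303), and -0.32 in whole brain (FDR 1.77e-07). Its whole brain signals were 8.27, 8.33 and 8.69 in NOD/ShiLtJ, against 8.57, 8.69 and 8.76 in C57BL/6J, overlapping through the highest NOD/ShiLtJ sample. Ndufaf7 was higher in hindbrain (0.21, FDR 0.000437) and whole brain (0.13, FDR 0.0128). Ndufaf6 was lower in forebrain (-0.19, FDR 0.000369) and whole brain (-0.11, FDR 0.034) but was not called on 1.0ST arrays.

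Complete separation of the strains is given as counts beside the share among all transcripts. Signals of all 8 NOD/ShiLtJ mice lay below those of all 8 C57BL/6J mice for Ndufs5 alone in forebrain (1 of 43 members, beside 2.11% of all transcripts) and in whole brain (beside 1.91%), and for Ndufs5 and Ndufb10 in hindbrain (2 members, beside 2.18%). They lay above for no member in forebrain and whole brain (1.38% of all transcripts in each) and for Ndufaf5 in hindbrain (beside 1.7%). Called in all 3 regions were Ndufaf5 upward and Ndufs5, Ndufb10, Ndufc2, Ndufaf1 and Ndufa12 downward. On 1.0ST arrays 4 members were called upward in all 3 regions (Ndufaf5, Ndufaf7, Ndufb6 and Ndufb8) and 5 downward (Ndufs5, Ndufb10, Ndufc2, Ndufaf1 and Ndufa2). The share of all transcripts called in all 3 regions is not given here, so these counts cannot be set against it. Among markers of other cell types in forebrain, 3 of 7 microglial, 2 of 6 oligodendrocyte and 2 of 8 astrocyte genes were higher in NOD/ShiLtJ and 4 astrocyte and 2 of 7 endothelial genes lower, and their part in the strain differences was not tested.

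Most members had higher signal in hindbrain than in forebrain. Of the 43 members, 31 were called higher in hindbrain than in forebrain, beside 27.5% of all transcripts, and none was called lower, beside 19.7% (0 members were lower at an unadjusted p below 0.05). The median difference over the members was 0.159, beside 0.023 over all transcripts. Called higher were 5 of 6 core subunits, 6 of 9 accessory subunits of the matrix arm, 14 of 18 of the membrane arm, Ndufab1, 3 of 7 assembly factors, and both complex IV genes. Of the complex IV genes, Ndufa4l2 had a mean signal of 4.96, below the array medians. On 1.0ST arrays neither was called, with Ndufa4l2 at -0.05 (FDR 0.449) and Ndufa4 at 0.08 (FDR 0.299). The surrogate variables took up part of the region difference, and without them 40 members were called higher (33.1% of all transcripts). On 1.0ST arrays 14 were called higher (10.1%) and none lower (9.18%), all 14 among the 31, and 42 were called higher without surrogate variables (34.3%). In bulk tissue, a different share of cells and a different amount of RNA per cell cannot be told apart.

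The signals of the same mouse showed this directly. The median over the 43 members of the hindbrain minus forebrain difference was above 0 in all 16 mice, at 0.13 to 0.44 in NOD/ShiLtJ and 0.18 to 0.39 in C57BL/6J. The median over all transcripts in the same mice ranged between -0.028 and 0.07. Between 32 and 42 members were higher in the hindbrain of a given mouse, a count for which the share of all transcripts is not given here. Within a mouse, 18 members were higher in hindbrain in all 16 mice (beside 12.2% of all transcripts), and none was lower in all (beside 7.97%). In at least 14 mice 34 members were higher, also without a share of all transcripts to set beside it. On 1.0ST arrays 19 were higher in all mice (beside 12.9%).

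**Figure D3:**
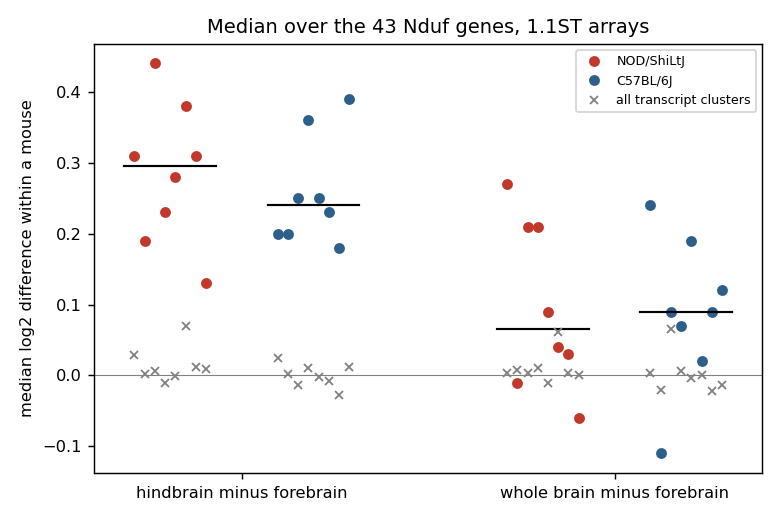
Median over the 43 Nduf genes of the log2 difference within each mouse, hindbrain minus forebrain and whole brain minus forebrain, NOD/ShiLtJ left of C57BL/6J, 1 point per mouse, a bar at the median over 8 mice, and grey crosses for the median over all transcripts in the same mouse. The hindbrain medians are above 0 in all 16 mice (0.13 to 0.44), and the whole brain medians span 0 (-0.11 to 0.27).

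Ndufaf2, an assembly factor that resembles the accessory subunit Ndufa12, had the largest fitted region difference. Its signals over 16 mice were 7.55, 7.85 and 8.03 (lowest, median and highest) in hindbrain, against 6.95, 7.24 and 7.58 in forebrain, which barely overlapped, and the fitted difference was 0.53 (SE 0.0561, FDR 5.57e-11). Within mice it averaged 0.60 ± 0.199 (SD, n = 16) and was positive in all 16. Ndufaf5 had signals of 8.07, 8.42 and 8.73 in hindbrain, against 7.55, 7.95 and 8.26 in forebrain (difference 0.38, FDR 3.67e-09). The remaining assembly factor called was Ndufaf1 (0.11, FDR 0.0171), while Ndufaf7 (-0.04, FDR 0.234) averaged -0.02 ± 0.173 within mice and was higher in hindbrain in only 6 of 16.

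Core subunits called higher in hindbrain were Ndufs7, which holds the last iron-sulfur cluster before ubiquinone (0.25, FDR 5.52e-07), Ndufs8 (0.20, FDR 1.86e-06), Ndufv2 (0.16), Ndufs1 (0.16), and Ndufv1, which binds the flavin and oxidises NADH (0.15, FDR 0.0173). Ndufs8 signals were 10.19, 10.41 and 10.72 in hindbrain, against 9.88, 10.07 and 10.28 in forebrain, overlapping at the edge. Ndufs3 was the core subunit not called, with a difference of -0.01 (FDR 0.388) and a within-mouse mean of 0.02 ± 0.104, higher in 9 of 16 mice. Accessory subunits of the matrix arm were led by Ndufa2 (0.32, FDR 3.4e-09), the zinc-binding Ndufs6 (0.30, FDR 0.000211), and Ndufs4 (0.29, FDR 0.00111), the subunit whose loss in mice gives an encephalopathy. Ndufa2 signals were 9.53, 9.76 and 10.11 in hindbrain, against 9.15, 9.30 and 9.67 in forebrain.

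In the membrane arm the leading members were Ndufa11 (0.37, SE 0.0678, FDR 7.14e-06), Ndufa3 (0.32), Ndufb5 (0.30, FDR 3.24e-09), Ndufb8 (0.29), Ndufc1 (0.29), Ndufa8 (0.28), the nucleoside kinase-like Ndufa10 (0.23), and Ndufa1 (0.21). Ndufb5 signals were 10.19, 10.52 and 10.63 in hindbrain, against 9.89, 10.05 and 10.25 in forebrain, and Ndufb8 was higher in the hindbrain of all 16 mice, by 0.48 ± 0.214 on average. Ndufab1, which carries acyl chains and also sits in the complex, had 8.91, 9.14 and 9.29 in hindbrain against 8.55, 8.73 and 8.89 in forebrain, without overlap (difference 0.35, SE 0.046, FDR 9.21e-09). A second cluster of Ndufab1 gave 0.37 and a second cluster of Ndufa11 gave 0.25, both called. In all, 7 members had more than 1 cluster. With their lower-mean clusters, 4 values of named members over all comparisons lost their call. The other 58 were unchanged, most of them by construction, because members with 1 cluster keep the same value. On 1.0ST arrays Ndufs4 (0.26), Ndufa10 (0.12) and Ndufa1 (0.01) were not called, and without mouse DD676 Ndufa10 was at 0.14 and not called. Called on both formats were Ndufs7, Ndufs8, Ndufa2, Ndufa6, Ndufs6, Ndufa3, Ndufa8, Ndufa11, Ndufb5, Ndufb8, Ndufc1, Ndufab1, Ndufaf2 and Ndufaf5. Fitted differences of the 12 members not called ranged between -0.04 and 0.24, the highest being Ndufb2 (FDR 0.0513), whose within-mouse differences had the widest spread, between -0.41 and 1.5.

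**Figure D4:**
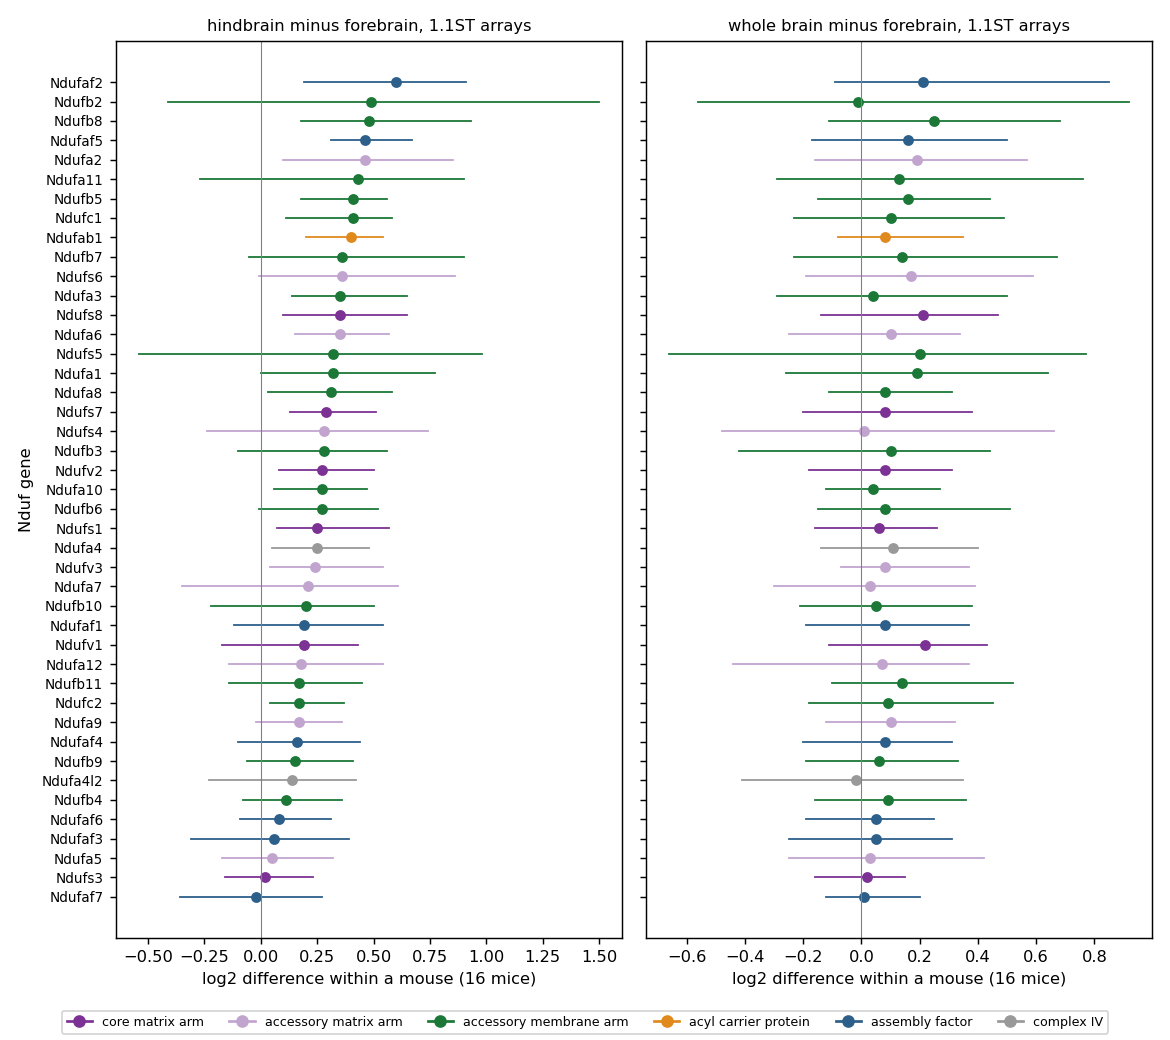
Mean log2 difference within a mouse over 16 mice, hindbrain minus forebrain and whole brain minus forebrain, for each of the 43 Nduf genes, with lines between the lowest and highest mouse and colours for the role. In hindbrain 42 means are above 0, led by Ndufaf2 (0.60), with Ndufaf7 (-0.02) at the bottom.

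Ndufs5 was not called in this comparison. Its fitted difference was 0.08 (SE 0.112, FDR 0.26), its within-mouse mean 0.32 ± 0.385, and it was higher in hindbrain in 12 of 16 mice, with a range between -0.54 and 0.98. It passed the threshold without surrogate variables (0.32, FDR 0.000365) and without NOD/ShiLtJ mouse DD657 (0.19, FDR 0.043), the mouse with the highest NOD/ShiLtJ forebrain value.

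Markers of several cell types changed with region beside the Nduf genes. Between hindbrain and forebrain all 7 brainstem neuron genes and all 6 oligodendrocyte genes were higher (medians 2.008 and 0.757), as were 6 of 7 endothelial genes, while 5 of 6 telencephalic neuron genes, 6 of 7 microglial genes and 7 of 8 choroid plexus genes were lower. Of 7 general neuronal genes 2 were higher and 3 lower (median 0.028), and of 8 astrocyte genes 5 were higher and 3 lower. The mean over the oligodendrocyte genes was 10.89 to 11.27 in hindbrain and 9.96 to 10.46 in forebrain. The part of these cell types in the Nduf differences was not tested. Without the 5 hindbrain samples with high cerebellar genes, 27 members were higher and none lower (median 0.153), and without mouse DD678 32 were higher and none lower. Shares of all transcripts called in these 2 fits are not given here.

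Genes of the other respiratory complexes were also called mostly higher in hindbrain. In hindbrain against forebrain, where 27.5% of all transcripts were called higher and 19.7% lower, complex II had 5 higher and 1 lower of 8 measured genes (median 0.167), complex III 5 higher and none lower of 8 (0.145), complex IV 12 higher and none lower of 15 (0.115), and complex V, the ATP synthase, 11 higher and none lower of 16 (0.119). Examples were Sdhc of complex II (0.36), Uqcrh (0.35) and the cytochrome Cyc1 (0.26) of complex III, Cox7a1 (0.55) and Cox6b1 (0.22) of complex IV, and Atp5k (0.34) and Atp5g1 (0.24) of complex V. Sdhaf1, a complex II assembly factor, was lower (-0.18). Of 13 complex I assembly factors without an Nduf symbol, 7 were higher and none lower (median 0.114), among them Tmem126b (0.27), Foxred1 (0.22) and Acad9 (0.19). Regulators of mitochondrial biogenesis were mixed, with 2 higher and 3 lower of 9 (median 0.002), such as Tfam, which packages mitochondrial DNA (0.15), and the transcription factor Yy1 (-0.32).

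Between strains in forebrain, where 8.98% of all transcripts were called higher and 8.76% lower, calls on these lists ran both ways. Complex II had 2 of 8 genes higher and 3 lower in NOD/ShiLtJ, including Sdhc (0.39) and Sdhaf4 (-0.31), complex III had 1 of 8 lower (Uqcr10, -0.23), complex IV 1 of 15 higher (Cox5a, 0.22) and 3 lower, led by Cox6a2 (-0.64), and complex V 1 of 16 higher (Atp5g1, 0.41) and 1 lower (Atp5e, -0.41). The assembly factors without an Nduf symbol had 3 of 13 higher, such as Tmem242 (0.28), and 2 lower, such as Timmdc1 (-0.23). None of the 9 biogenesis regulators was called.

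Whole brain was set against the same forebrain samples. In this comparison 10 members were higher (beside 8.48% of all transcripts) and none lower (beside 5.89%, with no member lower at an unadjusted p below 0.05), with a median of 0.043 beside 0.001. They were Ndufv1 (0.20, FDR 0.00103), Ndufaf2 (0.17, FDR 0.00295), Ndufb8 (0.15, FDR 0.00421), Ndufs8 (0.11, FDR 0.0014), Ndufb5, Ndufaf5, Ndufa2 and Ndufb11 (0.10 each), Ndufc2 (0.09), and Ndufa9 (0.08). Ndufv1 had signals of 10.52, 10.72 and 10.94 in whole brain, against 10.31, 10.45 and 10.76 in forebrain, which overlapped. Ndufs5 was not called (0.05, FDR 0.533). The median over the members was above 0 in 13 of 16 mice and highest, at 0.27, in mouse DD656, where 42 of 43 members were higher and the median over all transcripts was 0.004. Without that mouse 11 members were called, and without mouse DD676, 5, with Ndufaf2 at 0.11 and not called. Shares of all transcripts called without these mice are not given here. No member was called on 1.0ST arrays, where 1.45% of all transcripts were called higher and 0.194% lower (1.65% in all). At an unadjusted p below 0.05 there, 6 members were higher and 2 lower, beside 11.9% of all transcripts in either direction.

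Few calls were made for interactions and for clozapine. No member had an interaction of strain and hindbrain on either format (beside 2.29% of all transcripts on 1.1ST and 3.04% on 1.0ST arrays). At an unadjusted p below 0.05 in limma there were 3 members on 1.1ST arrays, beside 13.1% of all transcripts. On 1.0ST arrays there were 0, beside 13.7%. With transcripts averaging 5 or less left out, Ndufs1 was called (FDR 0.0487), and without NOD/ShiLtJ mouse DD675 2 members were. For strain and whole brain no transcript of the 28310 (0%) was called, and 2 members were at an unadjusted p below 0.05, beside 5.59% of all transcripts. Under clozapine 0 members were higher and 3 lower than under vehicle at an unadjusted p below 0.05, beside 14.5% of all transcripts in either direction. At the FDR threshold clozapine against vehicle gave no higher member (beside 1.04%) and 1 lower (beside 1.89%). The 1 was Ndufaf4, a matrix arm assembly factor (-0.09, SE 0.0252, FDR 0.035), whose forebrain signals were 7.84, 7.99 and 8.19 in 8 clozapine mice, against 7.94, 8.06 and 8.32 in 8 vehicle mice, with wide overlap, and it was not called on 1.0ST arrays (-0.04, FDR 0.321). Its call was also lost in 13 of the 16 fits that left out 1 mouse. On 1.0ST arrays no member was called, beside 3.03% of all transcripts, with 3 members at an unadjusted p below 0.05, beside 14.4%. Ndufs5 was at -0.13 (SE 0.0699, FDR 0.308).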

How the data were processed

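The authors deposited log2 values of 28310 transcript clusters for each of 96 arrays, made with RMA (quantile normalization and median polish) in Affymetrix Expression Console 1.1 per the labels. Groups came from the sample labels. The genome build behind the clusters is not given in the sources used here, and 21207 clusters had 1 symbol, 1867 several and 5236 none in the platform annotation. Ndufb4 has a near-identical copy and is uncertain. For the other members with more than 1 cluster, Ndufa11 among them, the kept cluster was the one with the highest mean. Which genomic copy it reports was not checked.

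For each format a linear model was fitted (limma 3.58.1, statmod 1.5.0, R 4.3.3) with 6 means of strain and region, treatment, 5 surrogate variables (each refined on 1000 transcripts), and the mouse as a random block (duplicateCorrelation). The FDR followed the formula of the study's methods. Array batch is not in the labels and was not fitted. The replicate number is the mouse, so samples were paired by animal: deviations of same-mouse arrays had a mean correlation of 0.054, ranging between -0.302 and 0.291 over 48 pairs, against -0.003 for other mice. Fits were tested on simulated data. Tables used Python 3.11.15, pandas 2.3.3 and numpy 2.4.6, and figures matplotlib 3.10.9.

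Ndufs5 was named in every comparison, with members called on 1.1ST arrays (up to 12 per direction, or 15 for hindbrain). Planned naming of the members with extreme levels was dropped because levels of different probes are not comparable. Members, lists and alternatives were chosen with earlier results of these data known.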

Additional observations from a re-analysis of the deposited data

Results flagged for a closer look

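For the 11 members called between strains in forebrain, 66 groups of 8 samples were screened for a sample far from the rest, and 4 were found. Chance gives about 1 in 20 groups. Ndufaf1 was highest in the NOD/ShiLtJ whole brain of mouse DD675 (8.69, next 8.45). Ndufc2 was highest in the NOD/ShiLtJ forebrain of mouse DD676 (12.05, next 11.91). In the hindbrain of C57BL/6J mouse BB707 both Ndufb6 (10.96, next 11.28) and Ndufc2 (12.05, next 12.20) were lowest.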

How the results depend on the processing

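Ndufs5 stayed lower in NOD/ShiLtJ in all 3 regions and per mouse under every alternative tried. Leaving out 1 mouse at a time gave a strain difference of -2.14 to -2.05 per mouse. Counts of called members moved more. For most of these settings the share of all transcripts called is not given here, so a change in a count cannot be set against it. The strain count in forebrain (11) was 7 when forebrain arrays were fitted alone and 7 on 1.0ST arrays without surrogate variables (chosen after seeing the data), and 11 to 12 without 1 mouse. In hindbrain (13) it was 21 with surrogate variables taken straight from the residuals, 8 in vehicle mice, 7 with hindbrain alone, and 9 to 18 without 1 mouse. In whole brain (11) it was 7 without surrogate variables, 6 in vehicle mice, 6 with whole brain alone, 7 on 1.0ST arrays without surrogate variables, and 10 to 12 without 1 mouse. Hindbrain against forebrain (31) gave 14 on 1.0ST arrays and 21 to 36 without 1 mouse. Whole brain against forebrain (10) gave 0 on 1.0ST arrays, 16 without surrogate variables, 29 with those from the residuals, 3 with a mean above 5 required, and 5 to 11 without 1 mouse. The interaction (0) gave 1 with a mean above 5 required and 0 to 2 without 1 mouse. Clozapine (1) gave 0 on 1.0ST arrays, 0 on either format without surrogate variables, 0 with those from the residuals, 0 with centred arrays, and 0 to 1 without 1 mouse. Reversed were Ndufb11 in whole brain on 1.0ST arrays (-0.00, FDR 0.836) and Ndufaf4 under clozapine on 1.0ST arrays without surrogate variables (0.01, FDR 0.792). Of the other values for single members, not counting those without 1 mouse, 592 kept their call, 107 lost it and 5 gained one. The 592 include values of members with 1 cluster, which could not change when lower-mean clusters were used. Fitting without the replicate block, that is without pairing samples by mouse, changed no call of a named member (62 of 62), and the hindbrain difference of Ndufs5 was 0.09 without it. The cause of these shifts was not tested.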
